A study of Mus musculus with 4 samples.

Results

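A set of 8 genes of cholesterol synthesis and its control by SREBP2 was looked up in the expression values of mouse embryonic stem cells (ESC): Srebf2, Hmgcs1, Sqle, Idi1, Fdps, Lss, Dhcr7 and Insig1. They were chosen by symbol, and 7 of the 8 had a row among the 28250 genes listed for each library, while Hmgcs1 was not analysed here. The cells were TBV2, a mouse ESC line grown with LIF, a cytokine that holds ESC undifferentiated, and the labels place them on a feeder layer and on gelatin-coated plates. Solvent alone was given for 24 h to the cells of 2 libraries, and 5 µM MS-275 (Entinostat), an inhibitor of class I histone deacetylases, for the same time to those of the other 2. The RNA was selected for poly(A) tails. The sources used here do not say whether the 2 libraries of a group came from separate cultures, so the p-values measure the spread between these libraries alone, which may be technical. With so few libraries, the spread used for a gene was drawn in part from all genes fitted together. The question put to these genes was whether the transcripts of the sterol pathway differed after 24 h with the inhibitor.

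Cholesterol is built from acetyl-CoA through mevalonate and squalene. SREBP2, the protein of Srebf2, is made as a precursor in the membrane of the endoplasmic reticulum. When sterols are scarce, the escort protein SCAP carries it to the Golgi, where proteases release the part that enters the nucleus and switches on genes of sterol synthesis and uptake. When sterols are plentiful, INSIG1 holds SCAP and the precursor back. Growing cells such as ESC need sterol for new membrane, and cholesterol also modifies Hedgehog ligands, which act in neural patterning.

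The letters upstream of 4 of these genes are shown because SREBP2 is known to act through short promoter sequences, together with the factors NF-Y and Sp1. The sequences are RefSeq's 250 bases before the transcription start on GRCm38.p6, a later build than the mm9 build of the values, and 5 of the 7 genes had an entry. Capitals mark every match, on either strand, to TCACNCCA (the core of a sterol regulatory element), CCAAT (the NF-Y box), GGGCGG (the GC box of Sp1) or CACGTG (an E-box). These letters were chosen after the sequences had been read. Of the 32851 windows of this length in the table, 3.67% held TCACNCCA, 33.8% CCAAT, 32.7% GGGCGG and 6.02% CACGTG. Dhcr7 has 3 listed starts, and the window with the most matches is printed. The windows printed are chr15:82147019-82147268 for Srebf2, chr5:28071162-28071411 for Insig1, chr10:76531355-76531604 for Lss and chr7:143829964-143830213 for Dhcr7, all on the + strand.
Srebf2: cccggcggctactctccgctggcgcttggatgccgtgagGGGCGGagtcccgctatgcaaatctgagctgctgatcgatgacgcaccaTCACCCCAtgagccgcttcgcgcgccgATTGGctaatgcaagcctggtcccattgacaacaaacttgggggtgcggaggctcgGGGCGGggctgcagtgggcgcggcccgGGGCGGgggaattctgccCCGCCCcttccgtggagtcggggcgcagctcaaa
Insig1: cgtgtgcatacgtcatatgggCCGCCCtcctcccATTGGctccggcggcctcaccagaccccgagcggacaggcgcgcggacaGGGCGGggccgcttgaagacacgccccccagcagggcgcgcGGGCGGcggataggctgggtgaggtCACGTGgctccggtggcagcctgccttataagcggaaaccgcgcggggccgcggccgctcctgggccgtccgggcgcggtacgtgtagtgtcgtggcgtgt
Lss: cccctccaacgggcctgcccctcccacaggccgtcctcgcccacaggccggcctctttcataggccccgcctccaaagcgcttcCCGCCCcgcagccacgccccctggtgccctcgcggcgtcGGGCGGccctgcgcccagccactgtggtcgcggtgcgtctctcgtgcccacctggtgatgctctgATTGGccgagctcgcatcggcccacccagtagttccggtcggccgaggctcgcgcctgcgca
Dhcr7: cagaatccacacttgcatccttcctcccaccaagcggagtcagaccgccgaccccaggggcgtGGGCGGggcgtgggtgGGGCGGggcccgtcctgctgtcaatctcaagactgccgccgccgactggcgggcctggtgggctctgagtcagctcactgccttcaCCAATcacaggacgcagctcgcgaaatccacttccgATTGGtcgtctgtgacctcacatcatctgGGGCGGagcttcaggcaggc
The only TCACNCCA match among the windows of these 5 genes lay upstream of Srebf2, at −162 from its start. CCAAT was found upstream of all 4 genes printed and of Idi1, and GGGCGG upstream of all 5. For Dhcr7 this holds for the window printed. Its other windows held 0 matches to CCAAT, and 1 and 0 to GGGCGG, while the percentages above are per window. A match is a description of the letters, and the lack of one says only that these letters are not in this window.

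The deposited measurement is a normalized expression value per gene, made by the authors with the Genomatix software from reads mapped to mm9. It is a signal and not a count, and its formula is not given in the sources used here. The 2 replicates of a group were not on the same footing. Summed over all genes, replicate 1 came to 2490 (solvent) and 2493 (MS-275), and replicate 2 to 3629 and 4359. The highest value of any gene was 1.63 and 1.43 in replicate 1, against 34.1 and 47.1 in replicate 2. The deposited alignments numbered 23467935 (solvent) and 20008841 (MS-275) for replicate 1, of which 53.2% and 54.4% repeated a position and strand already present, and 9785619 and 10915650 for replicate 2, with 0 repeats. Across 11049 genes, with all alignments counted, the values of replicate 1 nevertheless followed the alignments deposited with replicate 2 more closely, with r = 0.901 for solvent and 0.885 for MS-275 against 0.851 and 0.807 for their own. The values of replicate 2 followed the alignments deposited with replicate 1, with r = 0.918 and 0.904 against 0.815 and 0.750. These correlations are across genes, which are not independent. The alignments are named below by the library they were deposited with, and an exchange of replicates within both groups leaves the comparison of the groups as it is.

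Insig1, Lss and Dhcr7 were the members with the largest differences between MS-275 and solvent, with fitted log2 differences of 1.15, 0.99 and 1.22. All 7 members had a higher value with MS-275 in both replicate pairs, as did 50.0% of the 20336 genes tested, while 26.5% were lower in both. In Idi1, Lss and Dhcr7 both MS-275 values lay above both solvent values, where 32.3% of the genes tested showed this and 12% the opposite. The median log2 difference was 0.32 over the members and 0.20 over all genes tested. With limma on log2(value + 0.005) and no pairing of the libraries, none of the 7 passed a Benjamini-Hochberg adjusted p of 0.05, and 2 of them, Lss and Dhcr7, had an unadjusted p under 0.05. In that fit 1 gene of the 20336 was called higher (0.00492%) and 0 lower, with 2974 and 564 at an unadjusted p under 0.05. With the replicate number as a block, which compares MS-275 with solvent inside each pair, Lss, Dhcr7 and Insig1 rose, 3 of 7 members, and none fell. The block called 21.0% of all genes higher and 6.46% lower, so that 76.5% of its calls were higher. Median-ratio scaling moved the median of all genes to −0.01 and that of the members to 0.06, with 54.4% of the calls higher, and quantile normalization gave 49.8%.

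**Figure D1:**
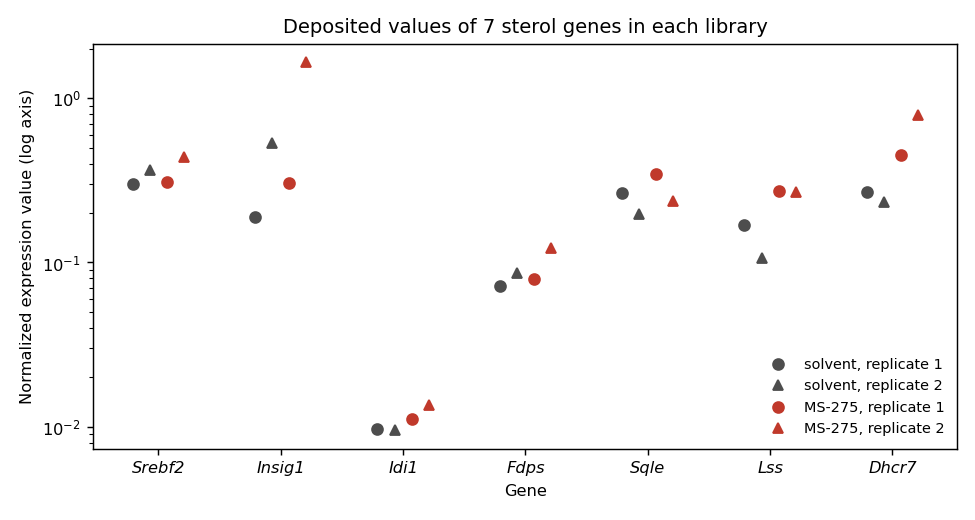
Normalized expression value of each gene (log axis) in the 4 libraries, with solvent in grey, MS-275 in red, circles for replicate 1 and triangles for replicate 2. Both MS-275 points lie above both solvent points for Idi1, Lss and Dhcr7, and the replicate 2 points of Insig1 (0.531 and 1.65) lie far above its replicate 1 points (0.189 and 0.305).

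The control of the pathway is represented by Srebf2 and Insig1. Srebf2 (chromosome 15, 81977696 to 82035806, + strand, 19 merged exons in GENCODE M1 on mm9) encodes the transcription factor itself. Its values were 0.300 and 0.366 with solvent and 0.311 and 0.441 with MS-275, so that the groups overlapped. The fitted log2 difference was 0.16 ± 0.23 (SE with the block), with an adjusted p of 0.932 in limma and 0.654 with the block. After median-ratio scaling of the libraries, the sign turned to −0.12. The 95% interval with the block ran from −0.33 to 0.65. Insig1 (chromosome 5, 28397952 to 28405201, + strand, 5 exons) encodes the protein that retains the SREBP precursor, and is itself a known target of SREBP2. Its values were 0.189 and 0.531 with solvent and 0.305 and 1.65 with MS-275. The replicates stood further apart than the groups: replicate 2 of solvent was above replicate 1 of MS-275. Within each pair Insig1 was higher with MS-275, by 0.68 and 1.63 on the log2 scale. The log2 difference was 1.15 with an SE of 0.80 and an adjusted p of 0.554 in limma without the block, and an SE of 0.27 and an adjusted p of 0.0052 with it. Leaving out replicate 2 of MS-275 alone, which leaves the pairs unbalanced, gave −0.05.

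The mevalonate arm is represented by Idi1 and Fdps, which make and join the isoprene units. Idi1 (chromosome 13, 8884852 to 8891641, + strand, 5 exons), the isopentenyl diphosphate isomerase, had values of 0.00968 and 0.00951 with solvent and 0.0112 and 0.0136 with MS-275. The groups did not overlap, yet the log2 difference of 0.25 ± 0.30 (SE with the block) had an adjusted p of 0.902 in limma and 0.574 with the block. Quantile normalization turned its sign, to −0.29. Fdps (chromosome 3, 88897514 to 88905881, − strand, 10 exons), the farnesyl diphosphate synthase, had 0.0719 and 0.0857 with solvent and 0.0794 and 0.123 with MS-275, and the groups overlapped. Its log2 difference was 0.31 ± 0.24, with an adjusted p of 0.828 in limma and 0.353 with the block. Neither gene passed the test in any fit to the values.

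The sterol arm is represented by 3 enzymes in their order along the pathway. Sqle (chromosome 15, 59146632 to 59162747, + strand, 11 exons) is squalene epoxidase, a rate-limiting step of the sterol arm. Its values were 0.264 and 0.197 with solvent and 0.347 and 0.236 with MS-275, and the groups overlapped because replicate 1 was the higher library in both. The log2 difference was 0.32 ± 0.22 (SE with the block), with an adjusted p of 0.807 in limma and 0.304 with the block. Lss (chromosome 10, 75994333 to 76019883, + strand, 21 exons) is lanosterol synthase, which closes the sterol rings. Its values were 0.168 and 0.106 with solvent, or 0.137 ± 0.0442 (SD, n = 2), and 0.274 and 0.269 with MS-275, or 0.271 ± 0.0035 (SD, n = 2). The MS-275 libraries were close to each other and both above the solvent libraries. The log2 difference of Lss was 0.99, with an adjusted p of 0.226 in limma without the block (SE 0.39) and 0.0047 with it (SE 0.23). Dhcr7 (chromosome 7, 151009050 to 151034315, + strand, 12 exons) is 7-dehydrocholesterol reductase, which makes the last step to cholesterol. Its values were 0.270 and 0.234 with solvent and 0.450 and 0.785 with MS-275. Both treated libraries were above both controls, and they differed from each other more than the controls did. The log2 difference of Dhcr7 was 1.22, the largest of the 7 members, with an adjusted p of 0.213 in limma without the block (SE 0.47) and 0.0029 with it (SE 0.27). On the log2 scale Dhcr7 was higher by 0.73 in the first pair and 1.72 in the second, and Lss by 0.68 and 1.30. Lss, Dhcr7 and Insig1 passed in all 7 fits with the block to the values or to positions on exons (described below), which included both other scalings. The fit to positions in introns, where Lss did not pass, is not among these 7, here or below. Median-ratio scaling left log2 differences of 0.72, 0.94 and 0.87.

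Counting where reads fell gave a second view of the same libraries. Distinct alignment positions, meaning start and strand counted once, were tallied on the exons of each gene in GENCODE M1 and tested with limma-voom over 16994 genes. Dhcr7 had 641 and 636 positions with solvent and 1196 and 1214 with MS-275. Per kb of exon, per 1000000 positions on exons, this was 24.5 and 25.5 with solvent and 56.4 and 43.7 with MS-275. Insig1 had densities of 35.04 and 28.1 with solvent and 60.8 and 44.7 with MS-275. Here the treated libraries were above the controls without pairing, in contrast to the values. Lss had 11.3 and 13.9 with solvent and 19.1 and 18.7 with MS-275. The log2 differences with the block were 0.99 ± 0.13 (SE) for Dhcr7, 0.73 ± 0.13 for Insig1 and 0.59 ± 0.12 for Lss, with adjusted p of 1.7e-06, 8.0e-05 and 0.00044 in limma-voom. These 3 of 7 members rose, where 29.7% of all genes were called higher and 13.9% lower. Without the block Dhcr7 (adjusted p = 0.0115) and Lss (0.0348) passed and Insig1 (0.0502) did not, and 15.1% of all genes were called higher and 5.11% lower.

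The other 4 members differed less on this measure. Srebf2 had the highest density on average among them, at 45.7 and 40.8 with solvent and 47.2 and 47.0 with MS-275, with a log2 difference of 0.12 ± 0.11 and an adjusted p of 0.401 in limma-voom with the block. Its 95% interval ran from −0.11 to 0.36, which leaves out a rise the size of that of Insig1. Sqle had 20.2 and 20.3 with solvent and 22.2 and 27.2 with MS-275. Its treated libraries were the higher ones, and the log2 difference of 0.29 ± 0.13 had an adjusted p of 0.0812 with the block. Fdps had 12.6 and 11.5 with solvent and 16.6 and 12.6 with MS-275, a log2 difference of 0.27 ± 0.23. Idi1 had only 42 and 25 positions with solvent and 43 and 39 with MS-275, a log2 difference of 0.40 ± 0.33.

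In the only pair that kept repeats, repeated reads were more frequent with MS-275 for every member except Srebf2. This rests on 1 library a group, and the share of all genes that showed it was not counted. Over all alignments of that pair 53.2% were repeats with solvent and 54.4% with MS-275. In the alignments deposited with replicate 1, which kept repeats, the exons of Insig1 held 3.21 alignments per distinct position with solvent and 5.54 with MS-275. For Dhcr7 these ratios were 2.07 and 3.24, for Lss 1.55 and 1.99, and for Srebf2 2.02 and 2.01. They were 2.51 and 2.85 for Fdps, 1.76 and 2.01 for Sqle, and 1.67 and 1.91 for Idi1. With all repeats counted, the log2 difference of exon alignments per 1000000 in that pair was 1.55 for Insig1, 1.82 for Dhcr7 and 1.09 for Lss. With each position counted once it was 0.79, 1.20 and 0.76. In the pair without repeats it was 0.67, 0.77 and 0.43. In the deposited values the larger pair differences (1.63, 1.72 and 1.30) belong to replicate 2, whose own alignments held no repeats, and the smaller (0.68, 0.73 and 0.68) to replicate 1. By the correlations across genes given above, the values of replicate 2 followed the alignments that kept repeats. Whether the alignments were exchanged was not resolved. Under either way of counting, Insig1, Dhcr7 and Lss stood higher in the treated library of each pair. The part of copied fragments in these values was not tested.

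The exons of a gene gave several readings of the same difference, though they share libraries and transcripts. Among exons with at least 40 positions over the 4 libraries, both MS-275 densities lay above both solvent densities in 5 of 5 for Insig1, 7 of 9 for Dhcr7, 8 of 16 for Lss and 6 of 11 for Sqle. For Fdps it was 2 of 7, for Idi1 1 of 2, and for Srebf2 3 of 19 with 2 the other way. Exons of other genes were not counted in this way, so these counts have no share over all exons beside them. The last exon of Dhcr7, 1358 bases long, held 50.2 and 48.0 positions per 1000000 with solvent and 121 and 85.2 with MS-275. Its first exon went the other way, with 2.60 and 2.89 against 2.50 and 1.50, on 11 to 19 positions a library. In Insig1 the first exon held 9.84 and 6.23 with solvent and 23.9 and 20.1 with MS-275, and the last held 66.0 and 52.9 against 106 and 71.5.

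**Figure D2:**
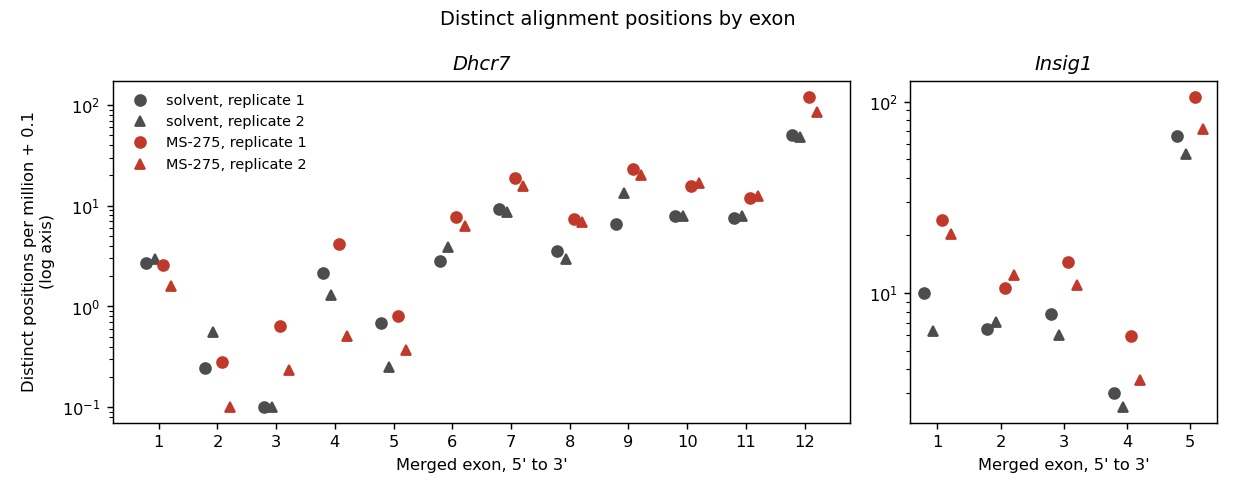
Distinct alignment positions per 1000000 in each merged exon, from the 5′ to the 3′ end, of Dhcr7 (left) and Insig1 (right), on a log axis after adding 0.1 so that exons at 0 can be drawn. All 5 exons of Insig1 have both MS-275 points (red) above both solvent points (grey), and in Dhcr7 exon 1 goes the other way.

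Introns were read as well, since reads there can come from transcripts not yet spliced. Intron positions are printed per 1000000 positions on exons, while the fits scaled them to all intron positions of a library, so the 2 scales differ slightly. Positions in Dhcr7 introns stood at 20.4 and 20.5 per 1000000 with solvent and 72.6 and 53.8 with MS-275. The fitted log2 difference was 1.67 ± 0.22 (SE with the block). Dhcr7 rose with an adjusted p of 0.00985 in limma-voom without the block and 8.0e-13 with it. It was the only one of the 7 members to pass without the block, where 10.9% of 13790 genes were called higher and 2.9% lower. With the block 4 members rose, where 28.7% of all genes were called higher and 13.7% lower: Insig1 by 1.05 on the log2 scale, Fdps by 0.96 and Idi1 by 0.78 beside Dhcr7. Insig1 introns held 18.7 and 34.0 per 1000000 with solvent and 46.7 and 56.2 with MS-275. Fdps introns held 12.7 and 14.1 with solvent and 32.5 and 18.8 with MS-275, and Idi1 introns 7.52 and 7.75 with solvent and 18.4 and 7.90 with MS-275. In both, the library deposited as replicate 1 of MS-275 stood well above the other 3. Lss had few intron positions, 26 to 36 a library, and a log2 difference of 0.45 with an adjusted p of 0.392 with the block. Srebf2 and Sqle had intron differences of −0.27 and −0.09, which did not pass.

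The low levels of Idi1 and Fdps have to be read with the sequence of their exons. Of the 35-base windows of their exons, the length of a deposited alignment, 85.2% in Idi1 and 77.8% in Fdps were found again elsewhere in mm9, so that a read from them has no single place. The share was 44.0% in Insig1, 2.40% in Sqle, 2.24% in Lss, 1.69% in Dhcr7 and 0 in Srebf2. Each member held between 0 and 13 distinct positions in such windows in any library. In the windows found once, Fdps held 67.2 and 59.1 positions per 1000 windows, scaled per 1000000 positions on exons, with solvent and 87.4 and 63.9 with MS-275, which put it level with Insig1 (65.4 and 52.3 with solvent, 113 and 82.0 with MS-275). Srebf2 followed at 50.5 and 45.7 with solvent and 52.7 and 52.5 with MS-275. Dhcr7 had 27.0 and 28.5 with solvent and 62.3 and 48.5 with MS-275. Sqle had 21.5 and 21.7 with solvent and 23.4 and 28.8 with MS-275, and Lss 12.6 and 15.7 against 21.3 and 20.9. Idi1 had the lowest level in both groups on average, at 13.0 and 8.35 with solvent and 17.4 and 11.6 with MS-275. In solvent, the neighbours Fdps and Insig1 in this order overlapped, as did Lss and Idi1, while the other neighbours did not.

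**Figure D3:**
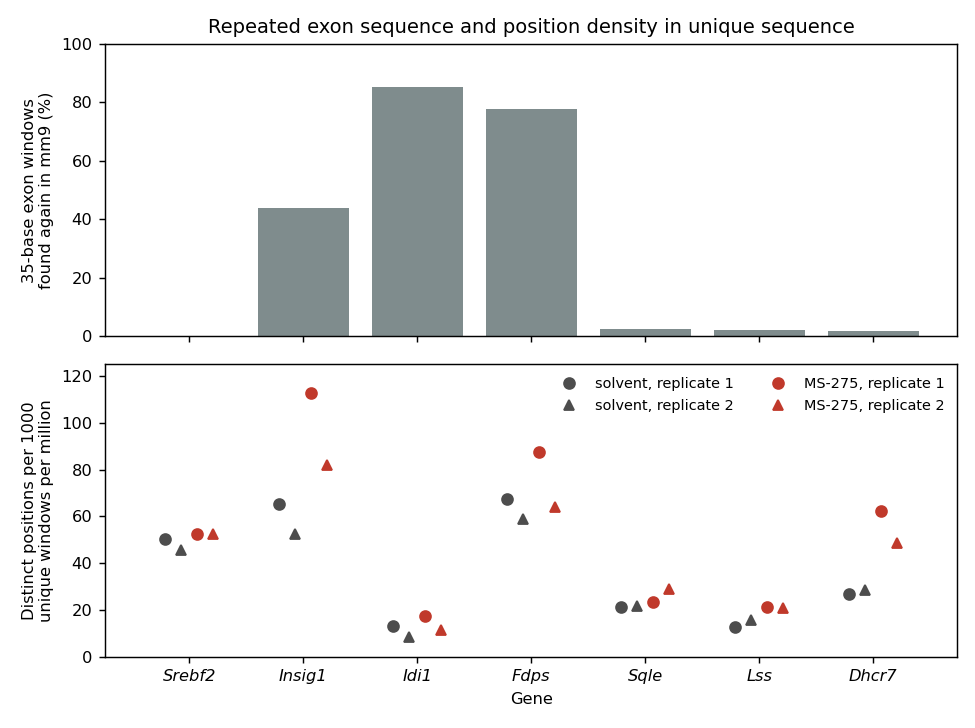
The upper bars give the percent of 35-base exon windows of each gene that occur again in mm9, and the lower points the distinct positions per 1000 windows found once (per 1000000 positions on exons), with solvent in grey, MS-275 in red, circles for replicate 1 and triangles for replicate 2. Idi1 (85.2%) and Fdps (77.8%) have the most repeated sequence, and in the remaining windows Fdps reaches the level of Insig1.

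The rest of the pathway was followed through lists of 49 genes written from textbook knowledge, of which 45 were tested, the 7 members among them. With the block 11 of the 45 rose and 1 fell in limma, beside 21.0% and 6.46% of all genes. Without the block 0 passed in limma. An unadjusted p under 0.05 was found for 6, beside 2974 higher and 564 lower of the 20336 genes tested. In both pairs 32 of the 45 were higher and 5 lower, beside 50.0% and 26.5% of all genes. Of 7 mevalonate arm genes 1 rose, Mvk, which encodes mevalonate kinase, with a log2 difference of 0.69 ± 0.24 (SE with the block) and an adjusted p of 0.0402 with the block. Mvk had values of 0.107 and 0.0764 with solvent and 0.1402 and 0.157 with MS-275, and it passed in 2 of the 7 fits with the block. The 2 highest genes of this list, the phosphomevalonate kinase gene Pmvk and the thiolase gene Acat2, had log2 differences of 0.67 and 0.25. They did not pass in limma with the block (adjusted p = 0.0626 and 0.442). Pmvk passed in 2 of the 7 fits with the block and Acat2 in 0. Of 12 sterol arm genes 3 rose, Lss, Dhcr7 and the ketosteroid reductase Hsd17b7 (by 0.86 on the log2 scale). Hsd17b7 passed in 6 of the 7 fits with the block, and not after median-ratio scaling (adjusted p = 0.0615 in limma). After that scaling 2 of the 12 rose, beside 16.4% of all genes. The highest in level, the lamin B receptor and sterol reductase Lbr and the methylsterol oxidase Msmo1, had log2 differences of −0.04 and 0.30 and did not pass.

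Of the 6 tested genes of SREBP control, 3 rose with the block, beside 21.0% of all genes: Insig1, Scap, which encodes the escort protein, and Srebf1, the sister factor that favours fatty acid genes. Srebf1 had values of 0.204 and 0.127 with solvent and 0.407 and 0.278 with MS-275. The log2 difference of Srebf1 was 1.04 ± 0.22 with an adjusted p of 0.0024 in limma with the block and 0.237 without. Scap had 0.0934 and 0.0689 with solvent and 0.177 and 0.145 with MS-275, a log2 difference of 0.96 ± 0.22. Srebf2 and the site-1 protease gene Mbtps1 (0.32) did not pass. On distinct positions Srebf1 rose by 1.16 on the log2 scale with and without the block, beside 0.12 for Srebf2. Mbtps2, the gene of the site-2 protease, was matched to no row of the values and is named after its positions were seen. It held 19.4 and 18.3 exon positions per kb per 1000000 with solvent and 10.02 and 9.86 with MS-275, both treated libraries below both controls. On this exon count Mbtps2 fell by 0.92 on the log2 scale, against the direction of the 3 genes of this list that rose. Its adjusted p on that count was 0.0077 in limma-voom without the block and 2.0e-06 with it. In exon windows found once, Mbtps2 held 32.01 and 27.49 positions per 1000 windows, scaled as above, with solvent. With MS-275 it held 24.75 and 17.14, so that the groups lay closer together. Why these counts differ was not tested. On intron positions the log2 difference of Mbtps2 was −0.69, with an adjusted p of 0.195 in limma-voom without the block and 0.0018 with it. Tm7sf2 and Nr1h3, also read by position alone, had exon differences of 0.50 and −0.11 and did not pass.

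Among 6 genes of uptake and transport 1 rose in the fit to the values with the block, beside 21.0% of all genes. It was Mylip, which encodes a ubiquitin ligase that lowers lipoprotein uptake. Its values were 0.0849 and 0.0428 with solvent and 0.166 and 0.198 with MS-275, a log2 difference of 1.51 ± 0.27. The transport genes Npc2 (0.04) and Stard4 (0.62) were the highest of this list and did not pass in that fit. On distinct positions with the block 3 of the 6 rose, beside 29.7% of all genes. Stard4 was among them, with an adjusted p of 0.00084 in limma-voom. On intron positions with the block 3 of 5 tested rose, beside 28.7%. Without the block 1 rose on each of these measures, beside 15.1% and 10.9% of all genes. None of 5 genes of the LXR and efflux list passed in the fits to the values, where 0 had an unadjusted p under 0.05 with or without the block in limma. On intron positions 0 were called without the block. There 3 had an unadjusted p under 0.05, beside 3105 higher and 1122 lower of the 13790 genes tested. With the block 3 rose, beside 28.7% of all genes. The highest genes of the LXR and efflux list were the lipoprotein gene Apoe and the acyltransferase gene Soat1, whose enzyme esterifies cholesterol. Their log2 differences were −0.01 and 0.08.

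Among 9 fatty acid genes that SREBP1 is known to control, 3 rose with the block and 1 fell, beside 21.0% and 6.46% of all genes. The count that rose was 1 with median-ratio scaling or with genes averaging 0.01 or more, beside 16.4% and 18.7% of all genes. Acss2, the acetyl-CoA synthetase of the cytosol and nucleus, rose by 1.70 ± 0.27 on the log2 scale, from 0.0911 and 0.0324 with solvent to 0.205 and 0.176 with MS-275. The stearoyl-CoA desaturases Scd1 and Scd2 rose by 0.86 and 1.14, but passed in only 5 and 4 of the 7 fits with the block, and not after median-ratio scaling (adjusted p = 0.1004 and 0.0699 in limma). Scd2 went from 0.705 and 0.897 to 0.868 and 3.57, with 1 MS-275 library inside the range of solvent. The elongase Elovl6 fell by 0.85 on the log2 scale, from 0.335 and 0.314 to 0.227 and 0.139. Acly, ATP citrate lyase and a high gene of the list, stood at 0.23 and did not pass. On distinct positions with the block 17 of the 45 pathway genes rose and 1 fell, beside 29.7% and 13.9% of all genes. On intron positions with the block 20 of 43 rose and 1 fell, beside 28.7% and 13.7% of all genes, and 4 rose without the block, beside 10.9%.

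**Figure D4:**
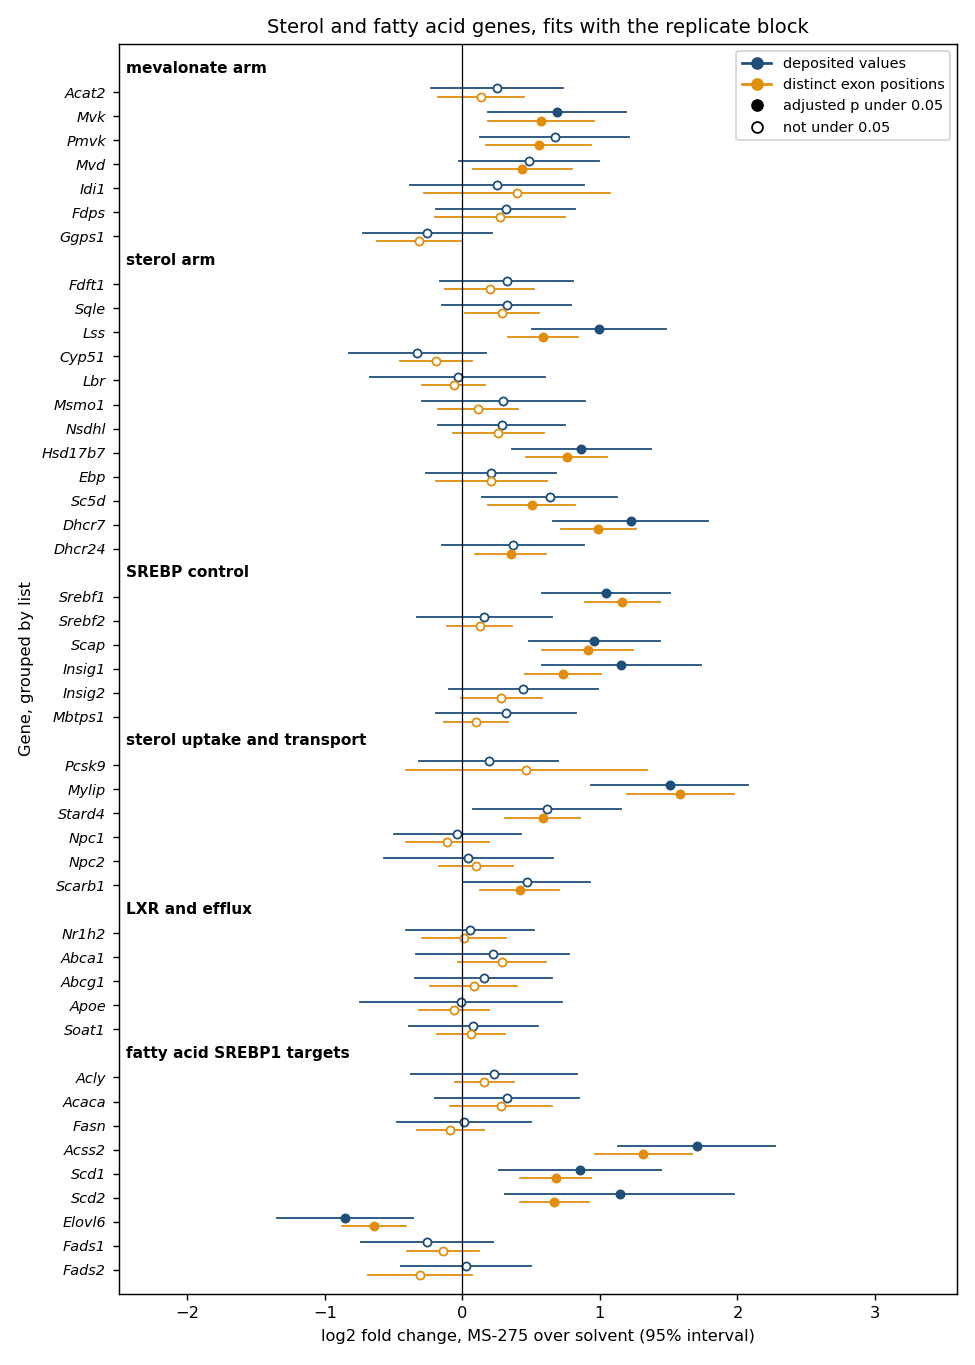
Log2 difference between MS-275 and solvent with its 95% interval for the 45 pathway genes tested, from fits with the replicate block to the deposited values (blue) and to distinct exon positions (orange), with filled points for an adjusted p under 0.05. Lss, Dhcr7 and Insig1 lie to the right of 0 on both measures, and Srebf2, Sqle, Idi1 and Fdps have open points on both.

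The profile of the members over the 4 libraries was also set beside that of other genes. The median of the members, as log2 values centred on each gene's mean, was −0.22 and −0.13 with solvent and 0.02 and 0.45 with MS-275. Fdps (distance 0.199), Idi1 (0.252) and Srebf2 (0.303) lay nearest to it, and Insig1 (1.86) farthest, because of its replicate 2. Outside the lists, the genes with a mean value of at least 0.05 nearest to this profile over the 4 libraries were Fbxo33 (0.0689), 3110082I17Rik (0.0704) and Lta4h (0.0840).

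Markers of the cells were read beside these results. All 10 ESC markers listed had values above 0 in every library and were lower with MS-275 in both pairs, as were 26.5% of all genes, and 4 fell with the block, beside 6.46% of all genes. Their summed value was 6.08 and 23.2 with solvent and 4.83 and 13.6 with MS-275. Of 10 fibroblast markers, which would mark feeder cells, 5 rose with the block and none fell, beside 21.0% and 6.46% of all genes, and none was at 0 in any library. Under other settings with the block some fell. After median-ratio scaling 4 rose and 2 fell, beside 16.4% and 13.8% of all genes. After quantile normalization 3 rose and 3 fell, beside 14.4% and 14.6%. On distinct positions 5 rose and 2 fell, beside 29.7% and 13.9%. The summed value of the 10 fibroblast markers was 1.23 and 2.24 with solvent and 1.33 and 1.68 with MS-275. Fn1 was the largest part in each library, with 0.872 and 1.73 with solvent and 0.709 and 0.794 with MS-275, lower in both pairs. Of the 10 fibroblast markers 6 were higher with MS-275 in both pairs and 3 lower, beside 50.0% and 26.5% of all genes. The sum therefore does not show the direction of most of these markers. In bulk RNA, fewer cells of a type and less RNA per cell cannot be told apart, and the part of a change in cell makeup in the sterol genes was not tested.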

How the data were processed

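RNA-seq libraries of TBV2 ESC, 2 with solvent and 2 with MS-275 for 24 h, were analysed, with the library titled as a duplicate taken as replicate 2. The authors mapped the reads to mm9 and deposited a normalized expression signal per gene made with Genomatix, together with the alignments. Aligner, versions and formula are not given in the sources used here. The deposited ratio tables and shortened tables were not used. The 20336 genes that reached 0.001 in 2 or more libraries were fitted as log2(value + 0.005) with limma 3.58.1 (R 4.3.3, eBayes with trend, two-sided), so that differences of low genes are understated. P-values were adjusted by Benjamini-Hochberg over all genes tested, and calls made at 0.05. Distinct positions whose midpoint lay in the exons (or introns) of exactly 1 GENCODE M1 gene were tested with limma-voom for genes with 10 or more in 2 or more libraries. These positions are not a deposited count, the depth behind a value is unknown, and the number of alignments limits the precision. Strand was not used, so reads of antisense genes cannot be told apart. Python 3.11.15, numpy 2.4.6, pandas 2.3.3 and matplotlib 3.10.9 were used, and the fits were tested on simulated data.

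The replicate block rests on the authors' naming of an old and a new library in each condition. Differences between replicates correlated at r = 0.764 over 20336 genes of the values and at 0.524 over 16994 genes of the positions. The block leaves a gene very few residual degrees of freedom, so its SE comes largely from the spread that eBayes shares over all genes. An SE or p-value with the block is therefore not a measure of how far the 2 pairs of that gene differed. The members and lists were chosen with earlier results of these data known. Named genes were the members, every list gene past the threshold in the fit with or without the block, the 2 highest genes of each list and 3 genes of similar profile. A pair of list genes is not reported here. Msmo1 is listed as Sc4mol. Hmgcs1 was not analysed here, and Tm7sf2, Mbtps2 and Nr1h3 were counted only by alignment position. Which solvent the controls received was not resolved.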

Additional observations from a re-analysis of the deposited data

How the results depend on the processing

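The calls of Lss, Dhcr7 and Insig1 rest on the replicate block or on counting positions, and the block was the choice that moved most counts. Members called higher numbered 0 without the block and 3 in each fit to the values with it, and on distinct positions 2 without and 3 with the block, while none was called lower in any fit. On intron positions the count was 1 without and 4 with the block. For the pathway lists, 0 genes were called higher without the block. With it there were 11, and 7 with median-ratio scaling, 12 with quantile normalization, 10 and 9 with pseudocounts of 0.001 and 0.02, and 8 when only genes averaging 0.01 or more were kept. On distinct positions there were 9, and 17 with the block. Pathway genes called lower numbered 1 in these fits with the block and on distinct positions, and 0 in the fits to the values without it. The median of the members, 0.32, was 0.055 after median-ratio scaling with and without the block, and 0.40 on distinct positions with the block. Leaving out each library in turn gave a median of 0.15 to 0.61 and 0 to 1 pathway genes called higher (1 without solvent replicate 1), with the lone library assumed to vary like the others, and 0 members called. No block could be fitted with a library left out, because no residual degrees of freedom remain.

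Log2 differences turned sign under median-ratio scaling for Srebf2 (−0.12), Npc2 (−0.24), Soat1 (−0.20), Acat2 (−0.030) and Acly (−0.054), and under quantile normalization for Idi1 (−0.29), with the same values with the block. Without 1 library the sign turned for Srebf2, whose range was −0.091 to 0.41, Insig1 (−0.054 to 2.36), Msmo1 (−0.026 to 0.62), Lbr (−0.72 to 0.64), Apoe (−0.72 to 0.70), Npc2 (−0.56 to 0.64), Soat1 (−0.25 to 0.41), Acat2 (−0.17 to 0.67) and Acly (−0.30 to 0.76). The cause was not tested. In all, 381 values of single genes under an alternative kept direction and side of the threshold, 87 kept direction and passed it, and 26 reversed. Pseudocount, filter and variance trend without the block changed no call of a member. With 2 libraries a group, the small differences of Sqle, Fdps and Idi1 in the values had 95% intervals that held 0.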
